A study of Mus musculus with 12 samples.

Results

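The regions described here are ESRP1 contact regions that had their middle under an annotated long noncoding RNA (lncRNA) gene and under no gene of certain other kinds. They number 290 of the 9649 contact regions found in all 3 of the study's site lists, and they fall in 239 of 12731 annotated lncRNA genes. Single-nucleotide contact sites of a list were joined into a region across gaps of up to 10 nt on the same strand, regions of different lists within 10 nt were merged, and a region was kept when it held sites of all 3 lists. Its middle had to lie in a GRCm38 lncRNA span and in no protein-coding, pseudogene, tRNA or small RNA span. The 20 regions of Malat1, Neat1, Norad and H19 were left out. Presence in the lists thus chose the members, so their number, their presence and the order of genes by regions or score are given as a description. Of all 45738 regions of the joined lists, 21.1% were found in all 3, against 25.3% of the 1144 under lncRNA spans and 19.3% of those under a single protein-coding span. A member region was present in 1.88% of annotated lncRNA genes.

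ESRP1 is an RNA-binding protein of epithelial cells that directs alternative splicing and binds UGG-rich RNA. LncRNAs are transcripts without a long coding frame. Some act as RNA in the nucleus, as Xist does on the inactive X chromosome, some are hosts from whose introns small RNAs are cut, and many are known only as predicted gene models. The contacts were mapped by enhanced crosslinking and immunoprecipitation (eCLIP), in which ultraviolet light crosslinks protein to RNA and the point where copying of the RNA stops marks the contact. Epidermis came from back skin of mouse pups on postnatal day 1, of genotype Esrp1FLAG/FLAG, so the endogenous protein carried the FLAG tag in all 12 libraries. These are 6 FLAG immunoprecipitates and 6 inputs from biological replicates 1 to 6, and no group without the tag is used here. List 1 was called by the authors on replicates 1 and 2, list 2 on replicates 3 and 4 and list 3 on replicates 5 and 6, each with input. The lists hold no read counts, so the depth behind a site is unknown and the 2 replicates of a list cannot be compared.

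For marker genes of the labelled tissue and of other cell types, 10 of 15 epithelial genes had a region in all 3 lists within their span, on either strand. The same was so for 2 of 10 dermal fibroblast, 1 of 8 melanocyte, 1 of 8 immune cell and 0 of 8 endothelial and muscle markers. No region lay in the epithelial genes Krt14, Krt1, Krt10, Epcam or Esrp2. The share of all protein-coding genes with such a region is not given here. These counts therefore describe the markers and do not test the tissue. The lists held 73602, 40014 and 53864 sites.

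For the 2 members shown here the sequence around the contact can be read, because the region lies in the promoter window that RefSeq gives for a neighbouring or overlapping gene on the same build (GRCm38.p6). They are printed to show what a contact looks like at the nucleotide, as 30 nt on the strand of the sites, 5′ to 3′, with every nucleotide called in any list in capitals.
2810025M15Rik, chr1:157412783-157412812, plus strand: gtggaagcagagacGGtgttggggaggcgg
Gm10638, chr8:86745997-86746026, minus strand: cggcggcggcggcaGGgaagccgggctgcc
In both of them the called nucleotides were all G. The 2810025M15Rik window held 2 TGG, and the Gm10638 window held no TGG, GGT or GTG. TGG was present in 44.0% of 65702 windows of 30 nt from the middle of all RefSeq promoters, read both ways, and GGT in 31.8%. Of the 144 regions found in all 3 lists whose window could be read in this way, 82.6% held TGG on the strand of the sites and 18.1% on the other strand. These 3 motifs overlap one another, and a match is a description of the letters, not a binding site. The highest scores in lists 1, 2 and 3 were 9.10, 21.8 and 1.95 at 2810025M15Rik, and 79.3, 21.4 and 47.3 at Gm10638. A score is the authors' own value without a stated scale, so each site was ranked by score among all sites of its list, 100 being the highest percentile, and lists are compared by percentile. The highest scores stood at percentiles 43.2, 67.6 and 8.20 at 2810025M15Rik, the most variable of the pair, and 92.1, 66.8 and 81.0 at Gm10638.

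Many lncRNA regions lay on the strand opposite to the lncRNA. The strand of a gene was taken from the RefSeq promoter table, which gives it for 9533 of the 12731 lncRNA genes. A strand could be set for 235 members: 139 lay on the strand of an lncRNA span above them and 96 on the opposite strand, while for 55 it was not given. The share on the annotated strand was 59.1% (95% exact binomial interval 52.6 to 65.5), against 93.2% (92.4 to 93.9) of 4765 regions in all 3 lists under a single protein-coding span and no other span. These intervals cover counting error only. Without the 18 members at tRNA genes described below, the share was 55.8% (48.9 to 62.5, 121 of 217). Under a single lncRNA span it was 56.4% (124 of 220), and 54.7% without members at tRNA genes as well.

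The same difference was present in regions of the lists that were not in all 3 and so were not members. They share lists, spans and gene strands with the members and are no independent check. Among regions of list 1 that were not in all 3 lists, 58.8% of 422 under lncRNA spans lay on the annotated strand, against 93.4% of 10068 under protein-coding spans. In list 2 it was 70.7% of 280 against 94.9% of 8073, and in list 3 it was 67.7% of 161 against 97.3% of 7709. Every list had the lower share under lncRNA spans, by 24.2 to 34.6 percentage points. With 3 lists the exact sign-flip permutation test (two-sided) cannot go below p = 0.25, the value it gave. Regions found in 2 lists count in both of them.

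**Figure D1:**
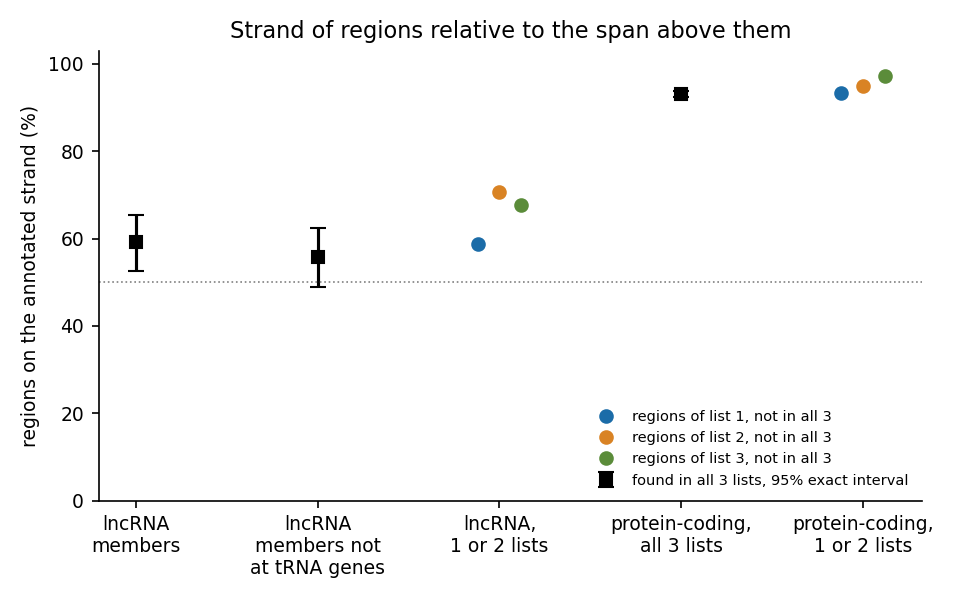
Percentage of regions on the strand of the annotated span above them, for lncRNA and protein-coding spans. Squares are regions found in all 3 lists with 95% exact binomial intervals, circles are the regions of each list that were not in all 3, and the dotted line marks 50%. The lncRNA members sit at 59.1%, or 55.8% without those at tRNA genes, below the 93.2% of protein-coding spans.

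Members were short clusters of sites. They had a median width of 7 nt (1 to 32 nt), 15 of them a single nucleotide, and held 1091, 678 and 952 sites of lists 1, 2 and 3. A nucleotide called in all 3 lists was present in 241 members (83.1%, 78.3 to 87.2), and in 80.3% of regions under a single protein-coding span. The highest-scoring nucleotide was the same in all 3 lists in 111 members (38.3%, 32.7 to 44.1), against 35.3% under protein-coding spans. A member held on average 3.76, 2.34 and 3.28 sites of lists 1, 2 and 3, against 3.70, 1.95 and 3.14 for protein-coding regions. The difference was 0.198 ± 0.168 sites (SD, n = 3 lists, exact sign-flip permutation p = 0.25, the smallest that 3 lists allow).

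The median percentile of a member's highest score was 84.0, 79.0 and 75.0 in lists 1, 2 and 3, against 80.9, 73.6 and 75.9 for 6456 regions under a single protein-coding span. Members were higher in lists 1 and 2 and lower in list 3. The difference, 2.57 ± 3.22 percentile points (SD, n = 3 lists), was smaller than its spread between lists (exact sign-flip permutation p = 0.5). With the mean score of a region's sites in place of the highest it was -0.05. Across the 290 members, percentiles of lists 1 and 2 had a Spearman rho of 0.74, lists 1 and 3 of 0.77 and lists 2 and 3 of 0.68 (Pearson 0.64, 0.68 and 0.51). These relations are across regions of 1 tissue, which are not independent samples.

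The mean percentile of the 3 lists had a median of 75.7 in members on the lncRNA's strand (14.6 to 99.7), 77.3 on the opposite strand (23.6 to 97.8) and 76.3 where no strand was given (20.6 to 98.8). A mean of 90 or more was reached by 43 of 139 members on the lncRNA's strand, 17 of 96 on the opposite strand and 12 of 55 without a given strand. Opposite-strand members covered much of the same range as those on the annotated strand, but a smaller share of them reached 90. Without the members at tRNA genes, 34 of 121 members on the lncRNA's strand reached 90, and their median was 74.2.

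**Figure D2:**
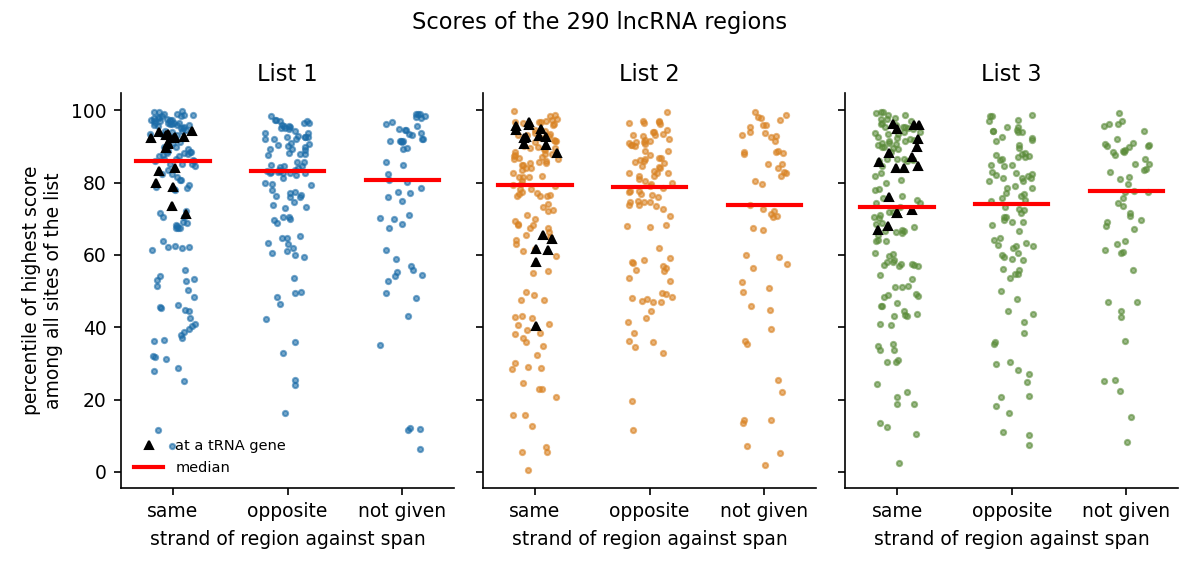
Percentile of the highest score of each of the 290 members within lists 1, 2 and 3, by the strand of the region against the span. Each point is a region, red bars are medians and black triangles are the 18 members at tRNA genes. The medians of the same-strand and opposite-strand members lie close together in each list.

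The lncRNA gene with most members, Gm16630, owed all of them to the edges of tRNA genes. Gm16630 is a predicted lncRNA on the minus strand of chromosome 6, with a span from 48130906 to 48395408 that overlaps 48 tRNA genes, named for the cysteine anticodon. Of 42 regions found in all 3 lists in this span, 18 were members and 24 had their middle inside a tRNA gene. All 18 members lay on the minus strand, and their middles fell 0.5 to 3.5 nt beyond the upper end of a tRNA span of 72 nt, which is the 5′ side on that strand. Of these members 8 overlapped the tRNA span with part of their width. At 5 of them the distance was 0.5 nt, and rounding the middle down would have made them tRNA regions. The 20 plus-strand regions in the span had a median position 1 nt inside the lower end of a tRNA gene, the 5′ side on the plus strand, so that the rule counted them as tRNA. The strand of these tRNA genes is not in the tables used here. Members at tRNA genes had mean percentiles of 62.8 to 94.8 (median 89.7), and the plus-strand regions inside tRNA genes 68.3 to 99.0 (median 98.4). For the Gm16630 member at 48293080 to 48293083, beside the tRNA gene n-TCgca50, the scores of lists 1, 2 and 3 peaked at 81.8, 89.5 and 119. The member at 48144998 to 48145001, beside n-TCgca36, had 45.8, 20.2 and 34.6. The first was higher than the second in every list. The lncRNA Gm30362, on the plus strand within the same stretch, shared 8 of these regions, all opposite to its own strand. The sources used here do not give how reads with several alignments were placed among these copies, and its part in these values was not tested.

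**Figure D3:**
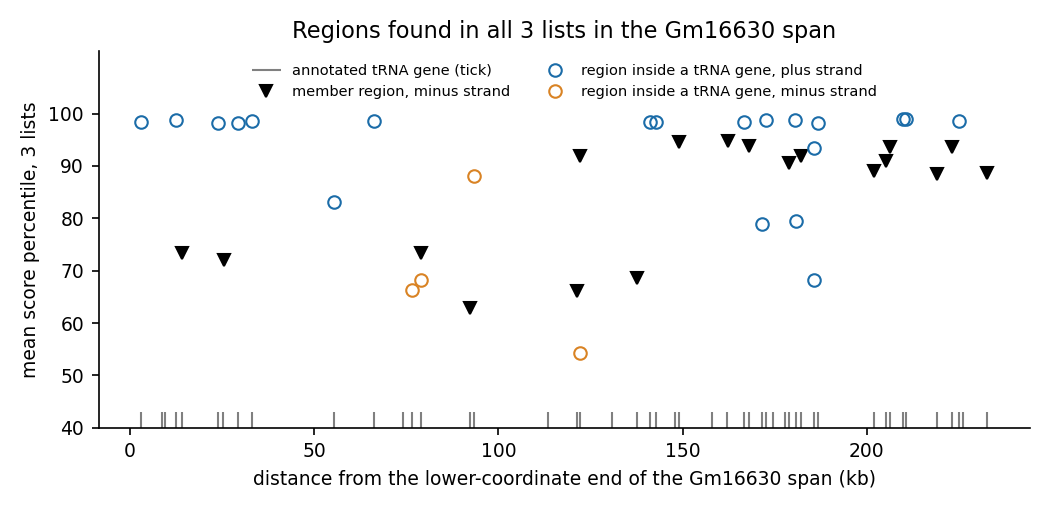
Regions found in all 3 lists in the Gm16630 span, by distance from its lower-coordinate end (kb) and mean score percentile over the 3 lists. Triangles are the 18 members, circles the 24 regions inside tRNA genes and grey ticks the annotated tRNA genes. Each triangle stands at a tick, and most plus-strand circles lie near 98.4.

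A pair of lncRNA loci on chromosome 10 carried near-identical contacts. In Gm26740 the plus-strand region at 22216937 to 22216938 peaked at scores of 137, 111 and 94.1 (lists 1, 2 and 3). The region at 22407166 to 22407167, under the overlapping lncRNAs Gm34607 and Gm10825, had 137, 113 and 94.0. The next region at each locus, at 22216952 to 22216955 and at 22407181 to 22407184, had 143, 59.8 and 106 against 143, 59.7 and 106. A region on the minus strand at 7488158 to 7488161, under no annotated gene, had the same series as this second region, with 142, 55.3 and 104. A series was called the same when all sites of all lists lay at the same offsets and each score was within 10%. Of 266 members with at least 4 sites, 6 had such a counterpart (2.26%, 0.832 to 4.84). Among all regions found in all 3 lists with at least 4 sites, 131 of 8970 had one (1.46%). The sequences of such regions were not compared. Whether the same reads could align at several of them was not tested, so their place of origin is uncertain.

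Among lncRNAs with a known role, Xist, the RNA that coats the inactive X chromosome, had a region with a mean percentile of 96.5. Its regions lay on its own strand at chromosome X, 103466877 to 103466878 and 103467177 to 103467183. Scores at the second were 170, 73.7 and 148 in lists 1, 2 and 3, higher in every list than the 114, 34.8 and 45.6 of the first. Both middles also lay in the span of Tsix, its antisense RNA, which is annotated as antisense RNA and not as lncRNA. Firre, an X-linked nuclear lncRNA that contains repeats, had regions on its own strand at 50573092 to 50573123 and 50608555 to 50608585. They were among the widest members, up to 32 nt, and their highest scores were 44.2, 27.9 and 29.7, and 48.8, 21.7 and 29.4. By percentile they stood at 83.4, 76.3 and 67.0, and 85.1, 67.4 and 66.6, with list 1 highest at both.

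The broadly expressed lncRNA Tug1 had a region on its own strand at chromosome 11, 3648546 to 3648547, with scores of 116, 44.1 and 92.1 and a mean percentile of 92.1. Oip5os1, also known as Cyrano and for its part in the turnover of a microRNA, had a region at chromosome 2, 119594346 to 119594352, with 66.9, 22.8 and 48.7. By percentile both were lowest in list 2, at 86.6 for Tug1 and 69.5 for Oip5os1. Chaserr, which restrains the neighbouring gene Chd2, had 22.0, 53.0 and 32.8 at chromosome 7, 73541831 to 73541837, which are percentiles of 67.4, 89.7 and 70.1. Tincr, a lncRNA known from epidermal differentiation, had a region on its own strand at chromosome 17, 56554021 to 56554041, with 60.3, 22.4 and 36.4 and a mean percentile of 76.8. The widest step between called positions in the Tincr region was 10 nt, the largest gap that was joined. Tincr was named after its values were seen, because of the tissue. Lncenc1, known from embryonic stem cells, had 68.1, 6.43 and 46.9 at chromosome 13, 97486902 to 97486912. These are percentiles of 90.3, 28.4 and 80.8, so that list 2 ranked lowest.

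Of 23 lncRNAs in a list of hosts of small RNAs, 2 (Snhg8 and Epb41l4aos) had a member, against 1.88% of all lncRNA genes. A region in any list, under the same rule, was present in 7, Gas5 and Snhg1 among them. The 1.88% does not apply to these 7, and the matching share of all lncRNA genes is not given here. Snhg8 had scores of 11.0, 32.9 and 16.7 at chromosome 3, 123507783 to 123507786, on its own strand. Epb41l4aos had 13.6, 2.75 and 33.5 at chromosome 18, 33794954. These are percentiles of 54.4, 13.6 and 70.8, and its strand is not given. Of 13 matched microRNA hosts, Mir124a-1hg had a member, with 14.4, 8.63 and 24.6 at chromosome 14, 64590991 to 64591004. Regions inside annotated small RNA genes were left out by the rule and do not enter these counts. Of 12 matched genes of X inactivation and imprinting, 10 are annotated as lncRNA, and 2 of these 10 had a member (Xist and Firre). Tsix and Nespas are annotated as antisense RNA and could not have a member by the rule. Of 25 other studied lncRNAs, 4 had one (Tug1, Oip5os1, Chaserr and Lncenc1). The share over all lncRNA genes, 1.88%, stands beside these counts too, and nothing particular to the lists was tested. Span length was not taken into account in these shares.

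By symbol, 178 of the 239 genes with a member were predicted models (Gm or LOC, 74.5%), 42 were RIKEN clones (17.6%) and 19 had another symbol (7.95%). Among all 12731 lncRNA genes these shares were 82.0%, 14.0% and 3.94%. A single member was present in 199 genes, 2 in 34 and 3 or more in 6. Gm31025 had the highest mean percentile, 99.7, in a region on its own strand at chromosome 12, 28009625 to 28009632, with scores of 370, 275 and 277. Gm28590 followed with 99.2, at chromosome 1, 122234508 to 122234518, on its own strand, with 355, 144 and 266. Both held many sites, 8, 7 and 6 sites and 9, 4 and 9 sites. Gm33517 had 240, 135 and 237 at chromosome 1, 87731353 to 87731378, and its strand is not given. Gm51490 had 215, 119 and 236 on its own strand at chromosome 7, 81105941 to 81105945. Within the lists, the lowest percentile of these 4 regions was 97.5, at Gm51490 in list 2.

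In 2 gene models several members lay together on the annotated strand. Gm40361 had 3 regions between chromosome 12, 31099762 and 31100019, with mean percentiles of 96.2, 92.2 and 98.3. Its strongest region had scores of 219, 161 and 133 in lists 1, 2 and 3. 2310047K21Rik had 4 regions between chromosome 2, 104821032 and 104821783. Their scores, in genomic order, were 165, 90.3 and 193, then 111, 68.8 and 186, then 59.2, 60.7 and 80.1, and last 14.4, 19.5 and 33.8. They fell in this order in every list. The mean percentile over the lists went from 97.5 at the first to 63.3 at the last. A further 3 regions of 2310047K21Rik were found in 2 lists and 5 in 1 list. Of all members, 38 had another member within 100 nt on the same strand and 62 within 1000 nt.

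**Figure D4:**
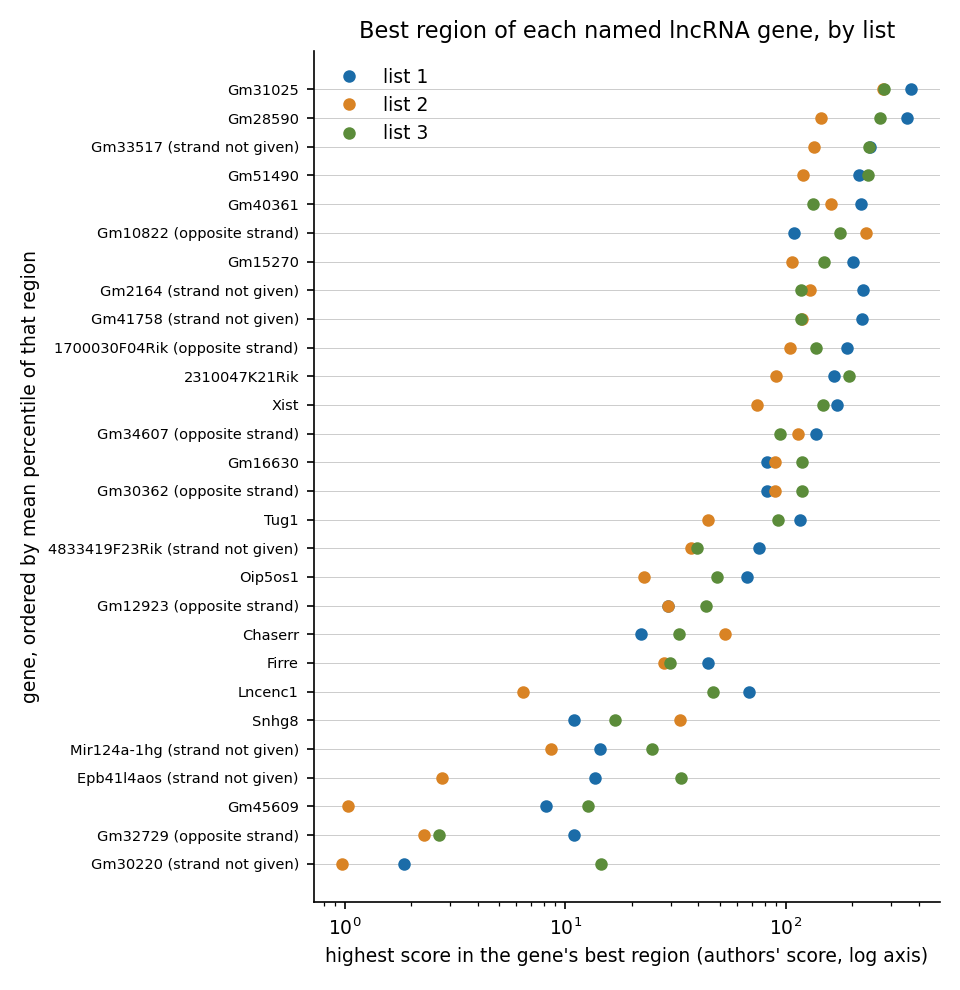
Highest score of the best region of each named lncRNA gene in lists 1, 2 and 3 (authors' score, log axis), ordered by the mean percentile of that region. Labels say where the region lies opposite to the gene or where no strand is given. Gm31025 stands highest, with 370, 275 and 277, and Gm30220 lowest, with 1.85, 0.970 and 14.6.

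Other genes had their members on the opposite strand. 1700030F04Rik, a minus-strand lncRNA on chromosome 6, had 3 regions, all on the plus strand. The strongest, at 117717979 to 117717981, had scores of 188, 105 and 137, and the others 122, 56.5 and 93.8, and 64.2, 25.0 and 51.3. The order of the 3 regions was the same in every list, with mean percentiles of 97.5, 93.6 and 81.7. Gm10822, a plus-strand model on chromosome 2, had 109, 230 and 176 on the minus strand at 73895388 to 73895391. Gm15270 had 1 region on each strand, and Gm12923 had 2 on the opposite strand.

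Some opposite-strand members lay just beyond the annotated end of a protein-coding gene on their own strand. This was the case within 1000 nt for 7 of 96 opposite-strand members and 1 of 139 on the lncRNA's strand, and within 10000 nt for 12 and 4. A gene end on that side was known for 275 of all 290 members, and 8 had it within 1000 nt and 17 within 10000 nt. Where no lncRNA strand was given, it was 0 and 1 of 40. The difference between these groups was not tested. The Gm39954 region lay 22 nt past the end of Rin2, a Ras effector gene, with scores of 42.9, 60.6 and 46.1. The regions of A230103J11Rik lay 31 and 531 nt past Tnpo2, a nuclear import receptor gene, the Gm38462 region 189 nt past the homeobox gene Hoxd8 and the Gm35478 region 105 nt past Prom2. The others lay 160 nt past Mfsd7a and 696 nt past Crtap. On the lncRNA's strand, the A530013C23Rik region lay 385 nt past Cebpb. These genes were picked by that distance after it was seen. Only protein-coding genes with a strand in the promoter table were searched. Among those, the other 89 opposite-strand members had no such gene end within 1000 nt.

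Genes with a member had longer spans than lncRNA genes in general, with a median of 29235 nt against 8427 nt. By the rule a longer span has more room for a region's middle, and this was not separated here. On the annotated strand, away from tRNA genes and in single spans of at least 4000 nt, 12 of 111 members (10.8%) were within 1000 nt of the lncRNA's 3′ end and 5 (4.50%) within 1000 nt of its start. Uniform positions would put 4.88% in a stretch of that length. Members of the same gene are not independent positions. The 3 regions of Gm40361, from 31099762 to 31100019, all lay near its 3′ end at 31099118. The difference from uniform positions was not tested. The annotation used gives no exons, so exonic and intronic members cannot be told apart.

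The genes whose best region ranked lowest were Gm30220 with scores of 1.85, 0.970 and 14.6, Gm32729 with 10.9, 2.28 and 2.66 on the opposite strand, and Gm45609 with 8.16, 1.03 and 12.7. In list 2 their highest scores ranked at percentiles 5.13, 11.5 and 5.44. The members numbered 290 when sites were joined and merged within 10 nt, 295 within 5 nt and 277 within 50 nt. In 10 of the 290 members the widest step between neighbouring called positions was exactly 10 nt. Their highest list 1 scores ran from 1.75 at A530013C23Rik to 118 at Gm32677. No further region was gained at 11 nt. The first gained, at 12 nt, was in Miat, a nuclear lncRNA, at chromosome 5, 112213754 to 112213768, with scores of 20.6, 18.6 and 9.01.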

How the data were processed

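Data were 3 lists of single-nucleotide sites from ESRP1 eCLIP of mouse epidermis. Per the file headers they were called with input, and per the labels each list stands for 2 replicates. The score is deposited by the authors without a stated scale. Builds named in the submitters' processing notes are GRCm38 and mm10, and tools are HISAT2 2.1.0, cutadapt 1.16 and HOMER; their roles are not stated. PureCLIP appears in a label. For calling settings, duplicate removal and multiple alignments, the sources used here give nothing. No value per library is used here, and calling on pooled replicates hides their spread.

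Regions were built as described in the report and assigned to RefSeq gene spans of GRCm38.p6 (1-based). Gene strand and sequence came from the RefSeq promoter table (250 nt before to 50 nt after a start), and 1 readable member sequence is not reported here. Tests and intervals came from Python 3.11.15 with SciPy 1.17.1, after checks on simulated sites. Named genes were the 10 with most members, the 10 with the highest and the 3 with the lowest best mean percentile, and members of the 4 lncRNA lists; others are said to be named after their values were seen. Of the list symbols, 23 of 23, 13 of 15, 12 of 13 and 25 of 31 matched. The members and lists were chosen with earlier results of these data known. The strand comparison, the score series and the tRNA distance were chosen after seeing the data, as were 3 alternatives: rounding the middle down, leaving out members at tRNA genes, and single spans.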

Additional observations from a re-analysis of the deposited data

How the results depend on the processing

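The number of members was 290, and 188 when only the higher-scoring 50% of sites entered, 587 when overlap with other kinds of span was allowed, and 314 to 427 when a list was left out. The genes with a member numbered 239, and 153, 451 and 253 to 359 in the same order; without list 3 they numbered 359. The share found in all lists was 25.3%, and 28.6% when joined within 50 nt and 37.0% to 40.6% with 2 lists required. The share with a nucleotide called in all lists was 83.1%, and 89.9% for the higher-scoring sites and 85.4% to 90.5% when a list was left out. The difference in score percentile from protein-coding spans turned from 2.57 to -0.0521 with mean scores and kept its sign in the other alternatives run. The share on the annotated strand was 45.5% when overlap with other kinds of span was allowed and 55.8% to 61.1% in the others run. Without list 2, 2310047K21Rik had 7 regions, Gm40361 5, Gm2164 5, and Oip5os1, Gm32729, Epb41l4aos and Gm41758 2 each; without list 1 Oip5os1 had 2, and without list 3 Gm30220 had 2. Among higher-scoring sites, Snhg8, Lncenc1, Mir124a-1hg, Epb41l4aos, Gm45609, Gm30220 and Gm32729 had no member and 4833419F23Rik had 1. Gm16630 had 10 members with the whole region in the span, 42 with overlap allowed, 8 under a single span and 0 without regions at tRNA genes; Gm30362 had 16, 0 and 0 under the last 3 of these. Under a single span Gm34607 had 1 and Gm45609 0. No paired analysis was possible because each list was called on 2 replicates together with input, which leaves no value per library. Depth is unknown, so a lncRNA without a region cannot be told apart from one that is little expressed.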
